A study of Mus musculus with 6 samples.

Results

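The entries mir-6896 to mir-7243 of miRBase, the catalogue of miRNA sequences, were followed in small RNA libraries of mouse osteoblasts, bone marrow cells and muscle cell-derived extracellular vesicles (EVs). Members were chosen by name, as every entry whose number lies in this range with any letter or copy suffix. Earlier results of these data were known when the range was set. There were 193 such entries of 1006 in all, or 19.2% of the entries, and they had 191 distinct names. An entry is a precursor hairpin, so reads of its 5p and 3p mature forms are counted together.

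Mirtrons are miRNA precursors made by splicing. In the usual pathway, the nuclear enzyme Drosha cuts the hairpin out of a long transcript and Dicer then cuts off its loop. In a mirtron, the spliced and debranched intron itself folds into the hairpin, so that the Drosha step is not needed. In a tailed mirtron, only 1 end of the hairpin is an intron end, and the extra stretch at the other end is trimmed before Dicer acts. As introns start with GU and end with AG, the 5p form of a mirtron can start with GU and the 3p form often ends with AG.

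The study asked how fluid flow shear stress (FFSS) alters the EVs (Myo-EVs) that are released by C2C12 cells, a mouse myoblast line. The 6 libraries were 2 of Myo-EVs from unstressed cells, 2 of EVs from cells that received FFSS on an orbital shaker (FFSS-Myo-EVs), 1 of primary osteoblasts (OB) and 1 of primary bone marrow cells (BM). EVs were pelleted from the medium by ultracentrifugation, and the serum in that medium had been depleted of EVs. For all libraries, C2C12 ones included, the labels give a mixed background, 81.25% C57BL/6J with 18.75% 129/SvJ, and 90 ng of total RNA. OB and BM are labelled as control for stress and as coming from mice of 8 to 10 weeks, whereas the study's methods describe osteoblasts pooled from the calvariae of neonatal male mice, and marrow from the tibiae of 1 male mouse. The growth protocol in the labels, given alike for all 6 libraries, names vitamin D and dexamethasone as agents that C2C12 cells did or did not receive, and does not mention FFSS. No source states that the replicate libraries came from separate cultures, so the p-values measure only the spread between these libraries, which may be technical. The edgeR test used here pooled that spread over the tested entries (infinite prior degrees of freedom). An entry's edgeR p-value is therefore no measure of how well its own replicate libraries agreed. A lower value in a bulk library cannot tell fewer vesicles or cells with a miRNA from less of it in each.

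Total counts were 2414132 to 6092460 per library. A single entry, mir-21a, made up 44.9% of the BM library and 20.2% to 23.3% of the other libraries. Of the defining markers, the summed normalized value of 6 blood cell entries was 26172.8 in BM and 198.3 in OB. It was 15.0 and 10.8 in the Myo-EV libraries but 53.9 and 51.0 after FFSS, and mir-451a, a miRNA of red blood cells, rose (log2 fold change 2.36, adjusted p = 6.79e-05 by edgeR). Its values were 3.0 and 4.8 in Myo-EVs, near the 3.01 and 3.59 that 3 counts give there, and 25.9 and 17.7 in FFSS-Myo-EVs. Of the muscle miRNAs, mir-206 was at 1968.5 to 2610.0 in EVs against 91.7 in OB and 7.9 in BM, and mir-1a-1 was at 0 in all 4 EV libraries. mir-133a-1, mir-133a-2 and mir-133b fell under FFSS, with log2 fold changes of -1.49, -1.92 and -1.75 (adjusted p = 0.00647, 0.000736 and 0.000139 by edgeR). mir-133a-1 and mir-133a-2 were at 17.1 to 20.4 in Myo-EVs and at 4.4 to 10.0 in FFSS-Myo-EVs. These 2 entries and mir-451a reached the minimum level for the test only through 1 of the groups. The part of these marker shifts in the members' values was not tested. Of the osteoblast and mesenchymal entries, mir-199a-1 was at 87356.0 in OB, 2013.7 in BM and 11324.2 to 16349.7 in EVs. mir-143 was at 269505.8 in OB and 274481.7 to 372549.3 in EVs.

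The name range was checked against gene structure in the GENCODE M21 annotation of the GRCm38 build. All 193 precursors had a position. In 14 of them (7.3%), both precursor ends lay within 10 bases of the ends of 1 intron, and in 11 of these both ends met exactly. A further 161 (83.4%) had a single end there and are called tailed, of which 158 lay at the 3′ end of the intron. The other members were 11 inside an intron away from its ends, 3 in exons and 4 outside annotated introns. Of the 792 other entries with a position, 9 (1.1%) were whole-intron hairpins and 29 (3.7%) were tailed. The label of mirtron-like entries therefore matched the positions of 175 of 193 members.

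The members differed from the other entries in sequence. As introns end with AG, the AG ends largely restate the positions given above and are no separate difference. Of the members' precursors, 85.0% ended in AG, compared to 8.1% of the other entries, and 73.3% of the 165 3p forms with a sequence did so, compared to 9.86% of 436. The precursors had a median length of 65 bases against 84 and a median GC content of 56.8% against 48.9%. The arms differed in composition. G made up 42.6% of the bases of the members' 5p forms, compared to 28.9% in the other entries. C and U made up 39% and 31.7% of the 3p forms, compared to 27.3% and 26.4%.

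**Figure D1:**
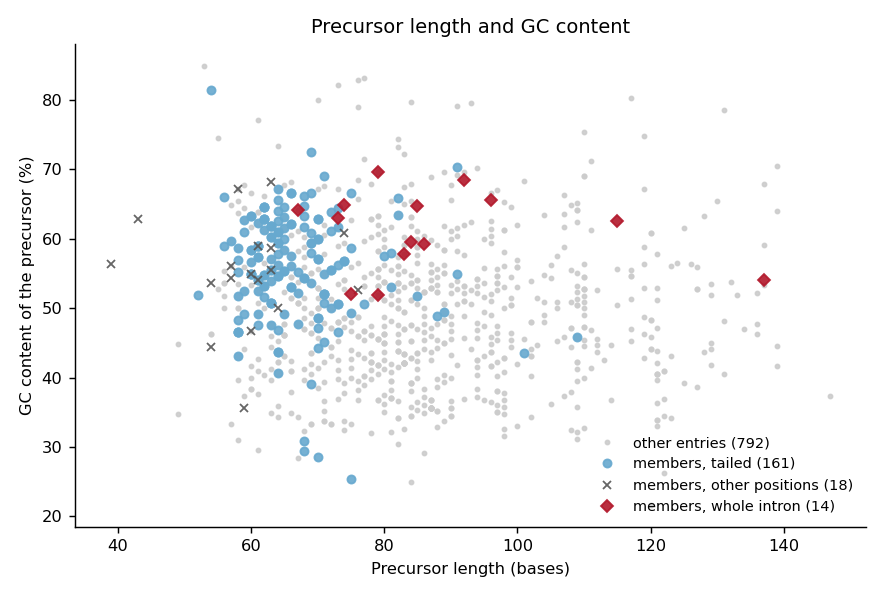
Precursor length in bases (horizontal axis) and GC content in percent (vertical axis) of 193 members and 792 other entries, 1 point an entry. The 161 tailed members gather around 65 bases, whereas the 14 whole-intron members reach from 67 to 137 bases.

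The hairpin of mir-7068, the most abundant member in EVs, shows the whole-intron form. It fills an intron of Cherp, a gene for an RNA-binding protein tied to calcium homeostasis and splicing, at chr8:72470016-72470089 on the minus strand. The hairpins of mir-6959, at the 3′ end of an intron of Sbf1 (chr15:89305658-89305732, minus strand), and of mir-6977, at the 5′ end of an intron of Ptprs (chr17:56418846-56418909, minus strand), show the tailed forms. Capitals mark the GU or AG that is the intron's own end, and the sequences are from RefSeq for GRCm38.p6.
mir-7068: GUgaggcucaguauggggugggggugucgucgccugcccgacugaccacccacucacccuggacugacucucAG
mir-6959: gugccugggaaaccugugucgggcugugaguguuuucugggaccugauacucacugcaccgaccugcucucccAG
mir-6977: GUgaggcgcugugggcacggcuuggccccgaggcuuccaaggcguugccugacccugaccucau

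The mature forms are shown for the 5 members that fell under FFSS, as described further on, and for other members that lead 1 of the libraries, with the seed (bases 2 to 8, the part that pairs with target mRNAs) in capitals. The 5p forms that begin at the first base of an intron share the opening letters gug or gua.
miR-7068-5p: gUGAGGCUcaguauggggugg
miR-7068-3p: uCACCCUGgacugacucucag
miR-6977-5p: gUGAGGCGcugugggcacggcuugg
miR-6977-3p: aAGGCGUUgccugacccugacc
miR-6959-5p: uGGGAAACcugugucgggcugug
miR-6959-3p: cUGCACCGaccugcucucccag
miR-6935-3p: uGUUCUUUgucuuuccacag
miR-7029-5p: uCUGGACGcucggcugccagcgc
miR-6944-5p: gUGAGAGCggggggaguggcaag
miR-6944-3p: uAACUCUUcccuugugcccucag
miR-7070-5p: gUGAGGGGagcugaggcagga
miR-7070-3p: cAGGCUCUccuucccuccag
miR-7091-5p: gUAGGGGUgauagauuccauggc
miR-7091-3p: aGUGGCUUcugucgucucuag
miR-7224-5p: gGGUAGGCcccucagugaaga
miR-7043-5p: uGUGAAAGcagagaggcauuuuu
miR-7043-3p: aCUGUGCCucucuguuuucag

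RefSeq held 332 mature sequences for 174 of the 193 members. They had 309 different seeds, and 288 of these were found on 1 member sequence only. So most seeds were not shared between members. The most sequences on 1 seed were 3, as for CACCCUG in miR-7018-3p, miR-7023-3p and miR-7068-3p. The seeds of miR-7068-5p and miR-6977-5p, UGAGGCU and UGAGGCG, differ in their last letter.

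The members were rare in every library. Their share of all counts was 0.011% in OB (570 counts, 95% exact Clopper-Pearson interval 0.0101 to 0.0119), and 0.0293% in BM (1787 counts, 0.028 to 0.0307). The 2 Myo-EV libraries had shares of 0.101% and 0.108% (2901 and 2610 counts), and the 2 FFSS-Myo-EV libraries of 0.0505% and 0.0555% (1529 and 1474 counts). These intervals cover counting error only. The share was highest in Myo-EVs and lowest in OB, and both FFSS-Myo-EV libraries lay below both Myo-EV libraries. The mean was 0.105% ± 0.005 (SD, n = 2) in Myo-EVs and 0.053% ± 0.0036 (SD, n = 2) in FFSS-Myo-EVs, a ratio of 0.507. With 2 libraries a group, an exact two-sided permutation test cannot go below p = 0.333. Few members were abundant, as 8.29% reached a mean normalized value of 10 over the EV libraries, compared to 52.8% of mir-1 to mir-999, 16% of mir-5000 to mir-6895 and 15.6% of the entries from mir-7244 on.

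mir-7068 made up most of these counts in Myo-EVs. It took 69.6% and 67.9% of the members' counts there. In FFSS-Myo-EVs it took 46.8% and 49%, compared to 5.61% in OB and 6.04% in BM. Without it, the Myo-EV libraries had shares of 0.0307% and 0.0347%, and the FFSS-Myo-EV libraries of 0.0269% and 0.0283%. The groups still did not overlap, but the ratio of the means rose from 0.507 to 0.844. BM, at 0.0276% without mir-7068, was then within the range of the FFSS-Myo-EV libraries, whereas OB was lowest at 0.0104%. This place of BM depends on mir-21a: with mir-21a also left out of the totals, BM was highest at 0.05%, before Myo-EVs (0.0401% and 0.0438%), FFSS-Myo-EVs (0.0337% and 0.0357%) and OB (0.0132%). The 13 other whole-intron members had a ratio of 0.935 and the 161 tailed members a ratio of 0.802.

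**Figure D2:**
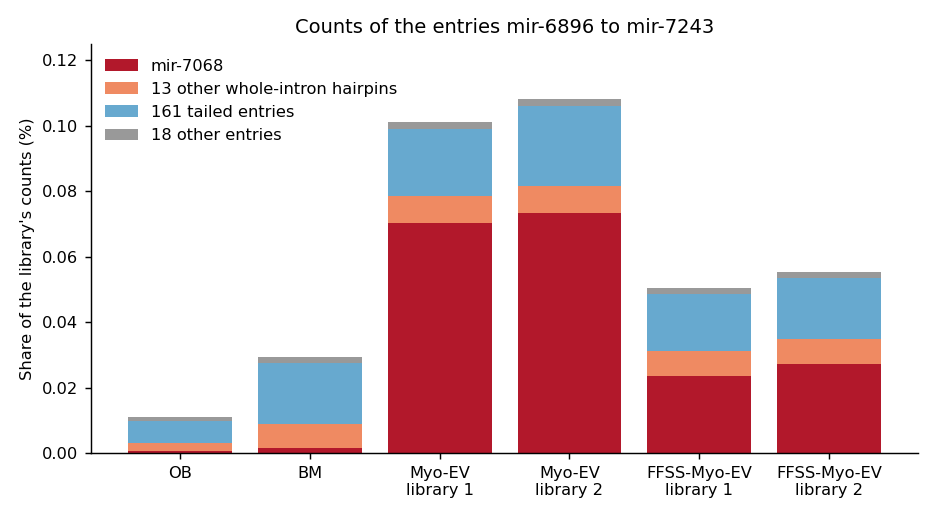
Share of each library's counts in percent (vertical axis) taken by the members in the 6 libraries, stacked by kind of entry. The mir-7068 segment is the largest in the 4 EV libraries, at 0.0236% to 0.0734%, and is 0.00177% in BM and 0.000618% in OB.

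Most members were seen in a few reads. At least 1 count was found for 111 members in OB and 144 in BM. The Myo-EV libraries held 130 and 115 of them, and the FFSS-Myo-EV libraries 128 and 125. At the smallest total count the numbers to be found would be 78.0 in OB and 110.2 in BM, and the Myo-EV libraries would hold 122.5 and 115.0, the FFSS-Myo-EV libraries 118.7 and 121.5. The numbers were lower in OB and BM than in any EV library, and those of the 2 kinds of EVs overlapped. The 813 other entries were also lower in OB (569.1) and BM (551.5) than in the EV libraries (570.0 to 613.3), so the direction is not particular to the members. The size of the gap in OB differed. The other entries in OB lay close to the lowest EV library (570.0), whereas the members, at 78.0, lay well below theirs (115.0). At 10 counts or more there were 13 members in OB, 28 in BM, 18 in each Myo-EV library, and 16 and 17 in FFSS-Myo-EVs. In all 6 libraries 44 members were found, in all 4 EV libraries 72, in EV libraries only 25, and in OB or BM only 25. Depth limits what the absences mean: the floor of 3 counts used for a count of 0 is 0.000124% of the counts in the shallowest library.

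For change under FFSS, 16 of the 193 members reached a mean normalized value of at least 10 over the 4 EV libraries, and 177 did not. mir-7008, at 10.8, was just above this minimum, and mir-7018, at 9.8, just below. mir-7008 reached the minimum only through Myo-EVs, with means of 13.1 there and 8.4 in FFSS-Myo-EVs. So did mir-7029, at 19.8 and 9.0. The normalized value is the count multiplied by the authors' scaling constant for the library. The 16 were 4 whole-intron hairpins (mir-7068, mir-6944, mir-7070 and mir-7091), 11 tailed members and mir-7224, which lies within a long intron of B3galt1. The mean was at least 100 for 2 of them, mir-7068 and mir-6977, and below 1 for 69 members.

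Of these 16 members, 5 fell, 0 rose and 11 did not pass the test (quasi-likelihood test of edgeR on 354 entries, Benjamini-Hochberg adjusted p below 0.05). Over all 354 entries, 18.4% were called lower and 12.1% higher, so the 31.2% of members called lower stands above that background, but on 5 entries. Of these 5, mir-7029 reached the minimum level only through Myo-EVs, the group where it is high. With library totals alone the calls over all entries were 46 lower and 49 higher, and with the authors' scaling 39 lower and 54 higher, where TMM gave 65 and 43. Neither DESeq2 nor limma called a member higher, and 7 of the 16 (43.8%) had an unadjusted p below 0.05, all of them negative, compared to 138 of all 354 entries (39%). The median log2 fold change was -0.44 in the 16 members against -0.03 over all tested entries, and 12 of the 16 were negative (75%, against 52.3%). The members' median was -0.22 with a GC correction, -0.24 by limma with a pseudocount of 10, and -0.72 without FFSS-Myo-EV replicate 1. On TMM-scaled values, FFSS-Myo-EVs lay wholly below Myo-EVs in 8 members and wholly above in 1, where the background was 32.5% below and 26% above. Among tested entries with a mean below 100, 9.27% of 151 were called lower, and 3 of the 14 members in that range. With the authors' scaling, log2 fold changes were higher than with TMM by a median of 0.123, and the same 5 members were called. Between replicate libraries the members' counts differed by a chi-square per degree of freedom of 1.98 in Myo-EVs and 1.39 in FFSS-Myo-EVs. Counting noise alone gives about 1. Over all entries the values were 93.3 in Myo-EVs and 15.9 in FFSS-Myo-EVs. The low values of the members thus do not mean that the replicate libraries agreed to counting noise.

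**Figure D3:**
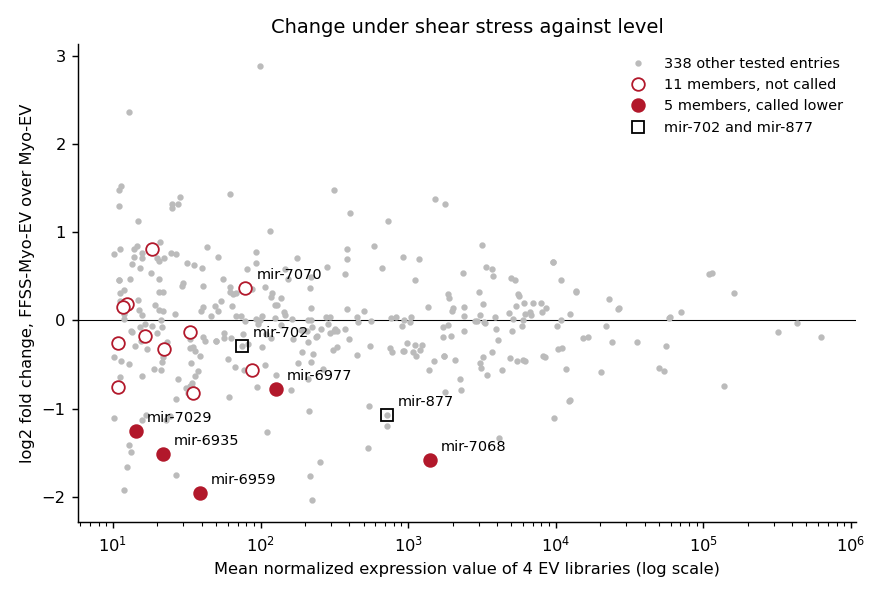
log2 fold change of FFSS-Myo-EVs over Myo-EVs (vertical axis) against the mean normalized value of the 4 EV libraries (log scale) for 354 tested entries. The 5 members called lower (filled) lie between -1.96 and -0.78, and the 11 others (open) lie on both sides of 0.

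mir-7068 had normalized values of 2026.7 and 2123.5 in Myo-EVs, 712.3 and 799.6 in FFSS-Myo-EVs, 42.9 in BM and 17.7 in OB. Both FFSS-Myo-EV libraries were well below both Myo-EV libraries and far above the cells. An annotated transcript of Cherp also covers this intron as exon, and no 18-base stretch of the hairpin lies in another gene's transcripts. The log2 fold change was -1.58 (SE 0.129, adjusted p = 7.81e-29 by edgeR), and it kept an adjusted p below 0.05 in all 15 alternatives. Its rank among the 1006 entries was 103 by EV mean, 228 in BM and 333 in OB. Myo-EVs held 117 times the OB value and 48.4 times the BM value, and FFSS-Myo-EVs 42.8 and 17.6 times, with 1 library of each cell and hence no test.

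mir-6959, from an intron of Sbf1, which encodes a myotubularin-related protein without phosphatase activity, was at 52.2 and 69.5 in Myo-EVs and at 14.9 and 18.8 in FFSS-Myo-EVs. These values rest on 52, 58, 15 and 17 counts, against 1 count in OB and 4 in BM. It had the steepest fall of the 16, with a log2 fold change of -1.96 (SE 0.384, adjusted p = 5.39e-06 by edgeR), and stayed called in all 14 alternatives. mir-6935 lies at the 3′ end of an intron of Actg1, the gene of cytoplasmic gamma-actin. Its values were 29.1 and 34.7 in Myo-EVs, compared to 13.0 and 11.1 in FFSS-Myo-EVs, with no overlap. The log2 fold change was -1.51 (SE 0.412, adjusted p = 0.00187 by edgeR). Without FFSS-Myo-EV replicate 2 the adjusted p was 0.0812, and by DESeq2 it was 0.0522.

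mir-6977 lies at the 5′ end of a short intron of Ptprs, which encodes a receptor-type tyrosine phosphatase. It had 1 count in OB and 0 in BM, where 0 allows a normalized value of up to 1.19. Its values were 129.5 and 183.2 in Myo-EVs, compared to 109.6 and 86.4 in FFSS-Myo-EVs, or 156.4 ± 38.0 and 98.0 ± 16.4 (SD, n = 2 each). The log2 fold change was -0.78 (SE 0.246, adjusted p = 0.00797 by edgeR). The gap between the groups was small against the distance between the Myo-EV libraries, and the edgeR call was lost without Myo-EV replicate 2 (adjusted p = 0.148), without FFSS-Myo-EV replicate 1 (0.0884), without FFSS-Myo-EV replicate 2 (0.411) and with a GC correction (log2 fold change -0.48, adjusted p = 0.118). Against a floor of 3 counts in BM, Myo-EVs were at least 131-fold higher and FFSS-Myo-EVs at least 82.2-fold higher.

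mir-7029 is a tailed member that runs a few bases past the 3′ end of an intron of Gcn1l1, a gene for an activator of the amino acid sensing kinase GCN2. It was at 19.1 and 20.4 in Myo-EVs and at 8.0 and 10.0 in FFSS-Myo-EVs, from 19, 17, 8 and 9 counts. With means of 19.8 in Myo-EVs and 9.0 in FFSS-Myo-EVs, it reached the minimum of 10 only through Myo-EVs. The log2 fold change was -1.25 (SE 0.447, adjusted p = 0.0207 by edgeR). This call was lost without each of the 4 EV libraries, with log2 fold changes of -1.34 to -1.15 and adjusted p-values of 0.0794 to 0.0987, and under limma (0.056 with a pseudocount of 1), and DESeq2 gave no adjusted p. mir-7029 and mir-6959 each share an 18-base stretch with transcripts of 1 other gene, whereas mir-6935 and mir-6977 share none. The stretch of mir-6935 is, however, also held by a transcript of its own host gene Actg1.

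**Figure D4:**
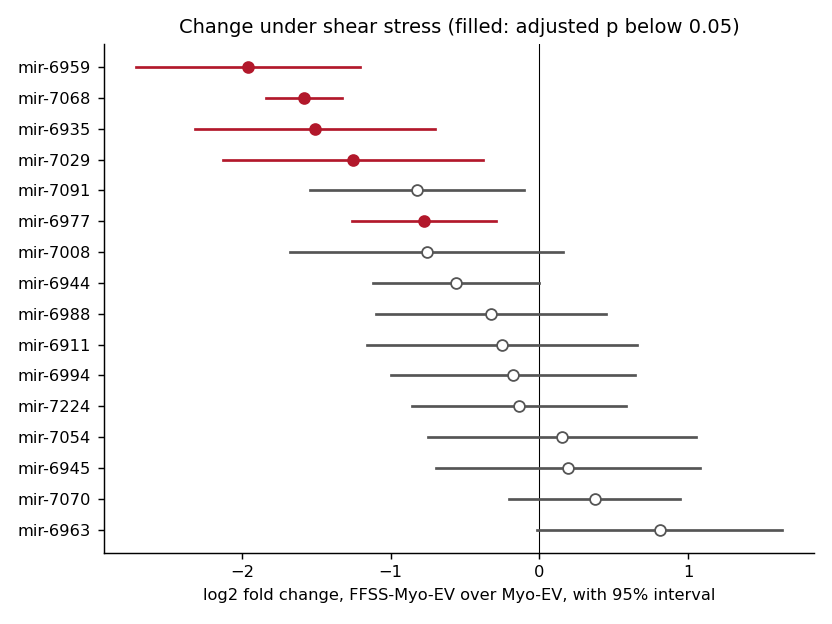
log2 fold change of FFSS-Myo-EVs over Myo-EVs (horizontal axis) with 95% intervals computed from the edgeR test statistic for the 16 tested members, filled where the adjusted p was below 0.05. mir-6959 and mir-7068 lie lowest, and the intervals of mir-7070 and mir-6963, the highest ones, include 0.

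The 3 other whole-intron members that were tested did not pass. The rest lay below the minimum level and were not tested. mir-6944, from Dbn1, the gene of the actin-binding protein drebrin, was at 93.4 and 107.8 in Myo-EVs, 68.7 and 79.7 in FFSS-Myo-EVs, 45.8 in OB and 1.2 in BM. Its FFSS-Myo-EV values were lower without overlap, but the log2 fold change of -0.56 had an adjusted p of 0.127 by edgeR. mir-7091, from Dnase1l1, a gene related to DNase I, was at 50.2 and 35.9 in Myo-EVs and at 27.9 and 25.5 in FFSS-Myo-EVs. Its log2 fold change of -0.82 had an adjusted p of 0.0753 by edgeR, and 0.044 without Myo-EV replicate 2. mir-7070, from Fbxw9, a gene for an F-box protein with WD repeats, was at 52.2 and 80.2 in Myo-EVs and at 98.6 and 85.3 in FFSS-Myo-EVs, a log2 fold change of 0.37 (95% interval -0.21 to 0.95, adjusted p = 0.383 by edgeR). Its groups overlapped on TMM-scaled values, and it shares 18-base stretches with transcripts of 9 other genes, whose fragments cannot be told from it. mir-6944 shares such a stretch with transcripts of 1 other gene, and mir-7091 with none. These 3 hairpins gave point estimates on both sides of 0.

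mir-6963, from an intron of Itga5, the gene of the fibronectin receptor's alpha-5 chain, had the highest fold change of the members. It had 12 and 11 counts in Myo-EVs, and 27 and 19 counts in FFSS-Myo-EVs, and its log2 fold change of 0.81 had an adjusted p of 0.135 by edgeR. It was the 1 member in which FFSS-Myo-EVs lay wholly above Myo-EVs on TMM-scaled values. mir-7224 was at 36.1 and 31.1 in Myo-EVs and at 36.9 and 29.9 in FFSS-Myo-EVs. mir-6988, from Syvn1, the gene of an endoplasmic reticulum ubiquitin ligase, was at 20.1 and 27.5 in Myo-EVs and at 16.9 and 24.4 in FFSS-Myo-EVs. In both entries the groups overlapped. The remaining 5, mir-6994, mir-6945, mir-7054, mir-7008 and mir-6911, had log2 fold changes between -0.76 and 0.19 and adjusted p-values of at least 0.228 by edgeR, from 5 to 21 counts a library.

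Longer-known mirtrons outside the name range were set beside these. mir-877, an exact intron of Abcf1, a gene for a protein of translation initiation, was at 923.5 and 972.5 in Myo-EVs and at 489.1 and 495.1 in FFSS-Myo-EVs, a log2 fold change of -1.07 (SE 0.132, adjusted p = 7.17e-14 by edgeR). Unlike mir-7068, it was also plentiful in cells, at 209.3 in OB and 527.5 in BM. mir-702, from Plod3, a collagen-modifying lysyl hydroxylase gene, was at 67.3 and 91.0 in Myo-EVs and at 59.8 and 80.8 in FFSS-Myo-EVs, which overlap, and its adjusted p was 0.528 by edgeR. mir-1224, from Vwa5b2, with an EV mean of 3.6, was too low to test. Of the 5 tested whole-intron hairpins that are no members, mir-877 was the 1 called lower and none was called higher.

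The leading members differed between the cells and the EVs. In OB, mir-6944 led with 83 counts, before mir-7224 with 47, mir-7068 with 32, mir-7070 with 28 and mir-6988 with 23, and these 5 made up 37.4% of the members' counts. These 5 are also among the 8 members with the highest EV means. In BM the order was another one: mir-7091 led with 384 counts, followed by mir-7043 with 305, mir-7068 with 108, mir-7219 with 77 and mir-7059 with 58, together 52.2%.

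mir-7043 lies at the 3′ end of an intron of Rassf4, a gene of the Ras association domain family, at chr6:116645978-116646047 on the minus strand. Its normalized value was 121.1 in BM and 1.1 in OB, and it had 0 counts in all 4 EV libraries. Against a floor of 3 counts per EV library, BM was at least 36.7-fold higher than Myo-EVs and at least 38.4-fold higher than FFSS-Myo-EVs. mir-7091 was likewise highest in BM, at 152.5 (95% interval for counting error 138 to 169), and lowest in OB, at 4.4. mir-7059, from Cln3, a lysosomal membrane protein gene, was at 23.0 in BM, 0.6 in OB and at most 1.1 in an EV library. mir-7219, which lies in an exon of Fam210a, was at 30.6 in BM and 1.7 in OB, and had 3 to 12 counts in the EV libraries. No replicate of BM or OB allows a test.

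**Figure D5:**
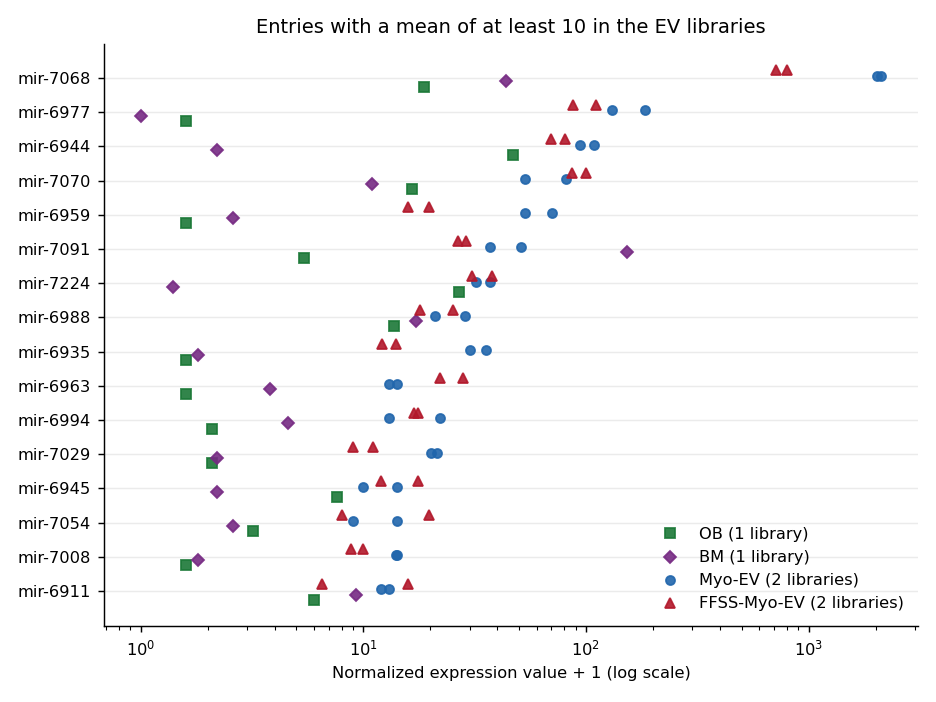
Normalized expression value + 1 (log scale) in each of the 6 libraries for the 16 members with an EV mean of at least 10, ordered by that mean. The EV symbols lie to the right of OB in all 16 members, and in mir-7091 all 4 lie to the left of BM.

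The mean of each EV group was above OB in all 16 tested members. It was above BM in 15, the exception being mir-7091, as against 63.6% to 65.8% of all tested entries above a cell library. These 16 were selected on their EV level, so this count describes them and tests nothing. At equal totals, FFSS-Myo-EVs were above BM in 14. The 177 members below the minimum, which were set apart by their low EV values, took 0.0114% and 0.0116% of the counts in the Myo-EV libraries, 0.011% and 0.0128% after FFSS, 0.0192% in BM and 0.00608% in OB.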

How the data were processed

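Small RNA libraries were prepared by the authors with the NEBNext kit, and the reads were grouped by sequence and matched to miRBase in CLC Genomics Workbench. The deposited counts are whole numbers per precursor entry. The deposited normalized expression value is a signal that the authors obtained by scaling, equal to the count times 1 constant per library. The labels name mm10; mismatch settings, the miRBase release and the handling of reads matching several precursors are not given in the sources used here.

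The 4 EV libraries were tested with edgeR 4.0.16 (R 4.3.3; TMM, quasi-likelihood test, Benjamini-Hochberg adjustment) on the counts of 354 entries with a mean normalized value of at least 10, and the script was tested on simulated data. Fold changes are FFSS-Myo-EVs over Myo-EVs. The edgeR test gives no standard error (SE), so SE is the absolute log2 fold change divided by the square root of the F statistic. The 95% intervals of fold changes use this SE and a normal quantile. Alternatives were other scalings and filters, DESeq2 1.42.0, limma 3.58.1, a replicate block, a GC correction and leaving out each library. Positions came from GENCODE M21 and sequences from RefSeq (GRCm38.p6). Ratios to OB and BM were taken where the cell library had over 3 counts, or against 3 counts where it had 0.

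The members and lists were chosen with earlier results of these data known. The named entries are mir-7068, the members called, the 10 highest by EV mean, the 5 highest in OB and in BM, and mir-702, mir-877 and mir-1224. Named in addition, after their values were seen, were mir-7018, mir-7023 and the 5 tested members that remained, so that all 16 are accounted for.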

Additional observations from a re-analysis of the deposited data

How the results depend on the processing

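mir-7068 and mir-6959 fell in every alternative run for them, and no called member changed direction. Of the 5 members called lower, the number was 2 with a mean of at least 100, where 2 members were tested, 3 by DESeq2, which gave no adjusted p for mir-7029, and 2 to 4 when a library was left out, lowest without FFSS-Myo-EV replicate 2. The number called higher, 0, became 1 with the replicate block and GC correction together (mir-6963, log2 fold change 0.93, adjusted p = 0.0312 by edgeR), and stayed 0 to 0 with a library left out; in that same setting mir-6977 had an adjusted p of 0.12. Over all entries, 65 were lower and 43 higher; 39 were lower with the authors' scaling and 37 by limma with either pseudocount, and leaving out a library gave 21 to 72 lower and 19 to 60 higher. With the replicate number as a block, the same 5 members were called, with 44 entries higher and 66 lower. The labels do not pair the libraries, and the correlation of replicate differences between the groups was 0.209, so the numbers are taken as shared names only.

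Leaving mir-21a out of the totals moved the members' share to 0.014% in OB, 0.0532% in BM, 0.134% in Myo-EVs and 0.0666% in FFSS-Myo-EVs, and leaving out mir-7068 moved it to 0.0276% in BM, 0.0327% in Myo-EVs and 0.0276% in FFSS-Myo-EVs, with a ratio of 0.844. At 10 counts or more, detected members were 13 in OB, 28 in BM, 18 in each Myo-EV library, and 16 and 17 in the FFSS-Myo-EV ones. Directions turned only in members that were not called: mir-6994 by limma (0.025 and 0.005), and, with a library left out, mir-6911 (-1.21 to 0.33), mir-6945 (-0.047 to 0.51), mir-6994 (-0.46 to 0.37), mir-7054 (-0.62 to 0.67) and mir-7224 (-0.35 to 0.079). Their causes were not tested. Counts of 5 to 29 a library limit the precision for tested members less abundant than mir-7224.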
